A study of Mus musculus with 2 samples.

Results

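Chemokines made by marrow stromal cells were examined as 10 genes chosen by name, Cxcl12, Ccl2, Ccl7, Ccl5, Cxcl1, Cxcl5, Cxcl10, Cxcl14, Cxcl16 and Cx3cl1, among 18942 genes that could be named. All 10 were found. Their expression was measured by RNA sequencing in marrow-derived mesenchymal stem/progenitor cells of 3-month-old CD-1 mice, cultured in DMEM with fetal bovine serum. There were 2 libraries, 1 from cells of the genotype PPAR KO (PPARg-deficient) and 1 from cells of the genotype PPAR-flox (PPARg-floxed). Both carried the same strain, tissue, age and culture labels. The sources used here do not give the exons removed, the means of deletion, or how many animals or cultures each library came from. With 1 library per genotype, no difference has a replicate check, no test was possible, and calls rest on size alone.

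Chemokines are small secreted proteins that guide leukocyte movement by binding heptahelical receptors, and heparan sulfate on cell surfaces and matrix holds many of them in place. Marrow stromal cells are known for CXCL12, which retains blood stem cells through the receptor CXCR4, and for CCL2 and CCL7, which release monocytes into the blood through CCR2. CXCL1 and CXCL5 attract neutrophils through CXCR2, CCL5 acts on T cells and monocytes, and CXCL10 is induced by interferon and attracts T cells through CXCR3. CXCL16 and CX3CL1 are made as membrane proteins and shed by ADAM proteases. PPARg, encoded by Pparg, is the nuclear receptor that drives fat cell formation and can restrain inflammatory transcription in macrophages.

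The family is divided by the spacing of the first cysteines of the mature protein, and the coding bases around them are shown because they place each member in its class. Bases were read from the GENCODE M21 transcripts, with the first and last cysteine codon of the motif in capitals and 9 coding bases on each side. The CC members have adjacent codons:
Ccl2: ccactcaccTGCTGCtactcattc
Ccl7: gcatccacaTGCTGCtatgtcaag
Ccl5: accactcccTGCTGCtttgcctac
The CXC members have 1 codon between them:
Cxcl12: agctaccgaTGCcccTGCcggttcttc
Cxcl1: gagctgcgcTGTcagTGCctgcagacc
Cxcl5: gagctgcgtTGTgttTGCttaaccgta
Cxcl10: acggtccgcTGCaacTGCatccatatc
Cxcl14: gggtccaagTGTaagTGTtcccggaag
Cxcl16: gctggaagtTGTtctTGTgatcgtacc
The CX3C member has 3 codons between them:
Cx3cl1: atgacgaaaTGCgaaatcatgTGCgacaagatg
The encoded precursors ran from 89 residues for the shortest Cxcl12 form to 246 for Cxcl16 and 395 for Cx3cl1, the membrane-bound pair. The other precursors had 91 to 148 residues.

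Transcript coverage summed to 1728 megabases in the PPARg-deficient library and 1383 megabases in the PPARg-floxed library. Pparg itself was at 1.39 FPKM in the deficient library and 6.86 FPKM in the floxed library, where FPKM counts fragments scaled to transcript length and library size. The median of 10650 kept loci, those with at least 1 FPKM in either library and a transcript of at least 300 nt, was 1.81-fold higher in the deficient library (0.86 on the log2 scale). Folds below are log2 of FPKM plus 1, deficient over floxed, relative to that median locus unless called as deposited, and a gene was called at 2-fold. FPKM levels are as deposited. Of 12 stromal markers 10 were kept, with Ly6a at 841 and 530 FPKM, S100a4 at 1581 and 238 FPKM and Vim at 442 and 51.2 FPKM in the deficient and floxed libraries. Of the 10, 2 were called higher and 1 lower, beside 10.3% and 11.6% of all kept loci. As deposited 4 were higher and none lower, beside 42.0% and 4.57%. Relative to the median locus, 5 of the 10 lay above and 5 below. Thy1 (0.42 FPKM in the deficient library, listed at 0 in the floxed library) and Eng (listed at 0 in the deficient library, 0.034 FPKM in the floxed library), which commonly define such cells, were nearly absent.

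Cxcl12 and Cxcl1 were the members at least 2-fold higher in the deficient library, and Cxcl10 and Ccl5 were the members at least 2-fold lower. Ccl7, the most abundant chemokine gene of both libraries, was higher by slightly under 2-fold, and Ccl2 and Cxcl5 lay within 2-fold, below the median locus. Cxcl14, Cxcl16 and Cx3cl1 stayed under 1 FPKM in both libraries and were not kept. Of the 7 kept members 2 were therefore higher and 2 lower, where 10.3% of all kept loci were called higher and 11.6% lower. As deposited, 3 members (Cxcl12, Ccl7 and Cxcl1) were higher and 2 lower, where 42.0% of kept loci were higher and 4.57% lower. The median relative log2 fold of the kept members was -0.39, against 0 for all kept loci by construction, and as deposited it was 0.47 against 0.86. Cxcl10 passed the filter through the floxed library alone, so its difference was partly fixed by that filter.

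**Figure D1:**
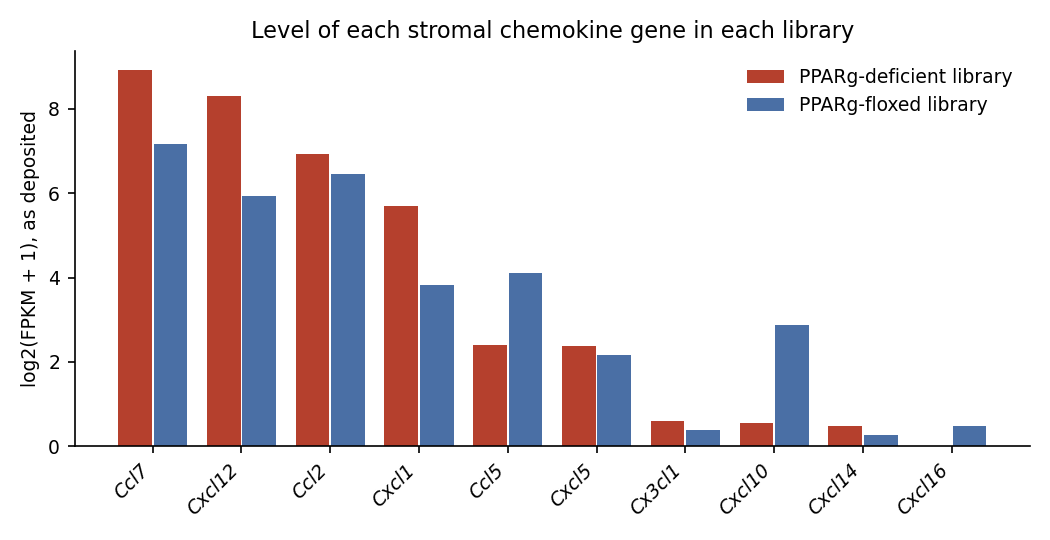
Level of each of the 10 chemokine genes, as log2 of deposited FPKM plus 1, in the PPARg-deficient library (left bar, red) and the PPARg-floxed library (right bar, blue), ordered by the deficient library. Ccl7 is the highest in both, at 487 and 143 FPKM, and only Ccl5, Cxcl10 and Cxcl16 have the lower bar in the deficient library.

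The order of levels differed between libraries. In the deficient library it ran Ccl7, Cxcl12, Ccl2, Cxcl1, Ccl5, Cxcl5, Cx3cl1, Cxcl10, Cxcl14 and Cxcl16, and the deposited bounds of Ccl5 (1.90 to 6.63 FPKM) and of the main Cxcl5 transcript (2.82 to 5.09 FPKM) overlapped. In the floxed library it ran Ccl7, Ccl2, Cxcl12, Ccl5, Cxcl1, Cxcl10, Cxcl5, Cxcl16, Cx3cl1 and Cxcl14, and the bounds of Ccl5 (11.5 to 20.8 FPKM) and of the main Cxcl1 transcript (9.63 to 15.2 FPKM) overlapped. The 10 genes summed to 986 FPKM in the deficient library and 331 FPKM in the floxed library, a ratio of 2.98. The median locus was 1.81-fold higher in the deficient library. That median was taken with the pseudocount and after the filter, and the ratio of 2.98 without a pseudocount, so they are not on the same scale. Most of the summed FPKM came from few genes. Ccl7 held 49.4% of it in deficient cells and 43.2% in floxed cells, Cxcl12 held 32.2% and 18.3%, and Ccl2 held 12.3% and 26.4%.

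**Figure D2:**
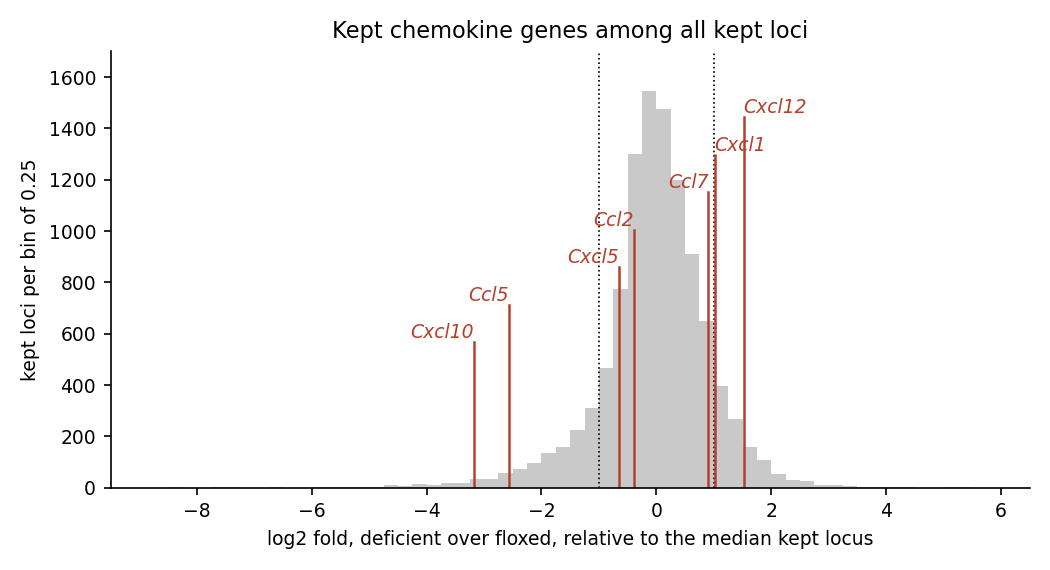
Histogram of log2 folds, deficient over floxed, of 10650 kept loci relative to their median, in bins of 0.25, with the 7 kept chemokine genes as red lines whose height only separates the labels and the 2-fold limits dotted. Cxcl12 lies at 1.52 and Cxcl1 at 1.01, just past the upper limit, Ccl7 at 0.90 just inside it, and Ccl5 and Cxcl10 lie in the lower tail at -2.56 and -3.18.

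Cxcl12, the homeostatic chemokine that anchors blood stem cells in marrow, was at 318 FPKM in the deficient library and 60.4 FPKM in the floxed library. Its relative log2 fold was 1.52 (2.86-fold), and 2.38 as deposited. Among kept loci it ranked 409 in deficient cells and 994 in floxed cells. The gene lies on chromosome 6, plus strand, from 117118553 to 117131386 (mm9), and 3 deposited transcripts matched annotated forms that differ at the end of the protein. They share 267 coding bases. The last 30 of these are given in lower case and the coding end of each form, stop codon included, in capitals:
Cxcl12 alpha (89 residues): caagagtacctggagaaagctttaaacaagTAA
Cxcl12 beta (93 residues): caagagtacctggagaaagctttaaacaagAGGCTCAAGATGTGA
Cxcl12 gamma (119 residues): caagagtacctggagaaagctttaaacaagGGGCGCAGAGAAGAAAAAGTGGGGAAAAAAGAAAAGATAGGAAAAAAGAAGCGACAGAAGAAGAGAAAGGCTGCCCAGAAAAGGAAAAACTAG
The gamma end adds a stretch rich in lysine and arginine codons, which is known to strengthen binding to heparan sulfate.

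All 3 forms had the higher FPKM in the deficient library, alpha and beta past 2-fold. The alpha form was at 138 FPKM (deposited bounds 111 to 166) in the deficient library and 19.4 FPKM (16.7 to 22.2) in the floxed library, a relative log2 fold of 1.91. The beta form was at 168 FPKM (163 to 173) in the deficient library and 37.1 FPKM (34.7 to 39.6) in the floxed library, a relative log2 fold of 1.29. The gamma form was the least abundant, at 11.6 FPKM (10.5 to 12.8) in the deficient library and 3.79 FPKM (3.11 to 4.46) in the floxed library, a relative log2 fold of 0.54, which is within 2-fold. The bounds, which describe the estimate within 1 library, did not overlap between libraries for any form. Beta held the larger part in both, 52.8% of the gene in deficient cells and 61.5% in floxed cells. Alpha held 43.5% in deficient cells and 32.2% in floxed cells, and gamma held 3.66% and 6.27%. In the deficient library the bounds of alpha and beta overlapped, so their order there was not resolved, whereas in the floxed library they did not. The alpha chain also matched an annotated form that retains an intron, so alpha is named here by its internal structure only.

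**Figure D3:**
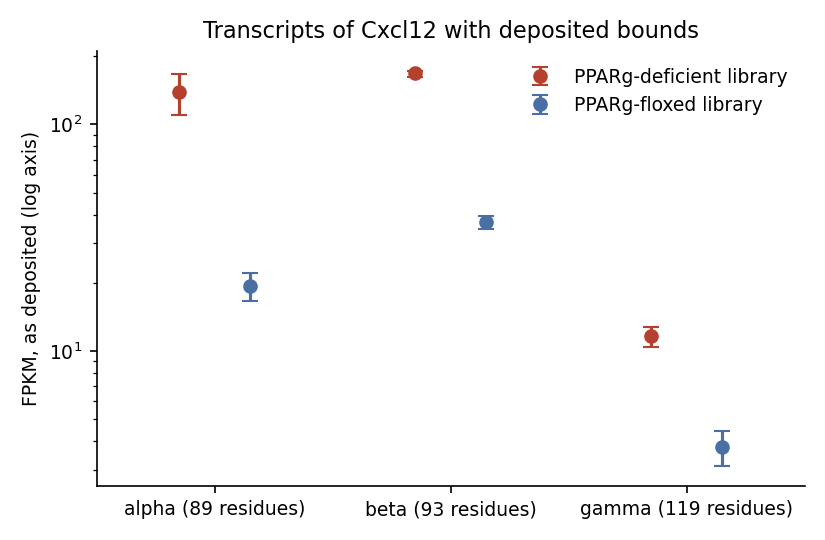
Deposited FPKM of the 3 Cxcl12 transcripts on a log axis, with the deposited lower and upper bounds as bars, in the PPARg-deficient library (left points, red) and the PPARg-floxed library (right points, blue). Each form is higher in the deficient library, with gamma at 11.6 and 3.79 FPKM the lowest form of both libraries.

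Ccl2 and Ccl7, the monocyte-attracting CC pair, are neighbours on chromosome 11 (mm9), on the same strand and 8.26 kb apart, and each had 1 transcript of 3 exons. Ccl7 (81859214 to 81861025) was at 487 FPKM (468 to 506) in the deficient library and 143 FPKM (133 to 153) in the floxed library. Its relative log2 fold was 0.90 (1.87-fold), under the limit, and as deposited 1.76 (3.39-fold), past it. Ccl2 (81849079 to 81850954) was at 121 FPKM (112 to 131) in the deficient library and 87.3 FPKM (79.3 to 95.3) in the floxed library. Its log2 fold changed sign with the scaling, at 0.47 as deposited and -0.39 relative to the median locus. For Ccl7 and Ccl2 the bounds did not overlap between libraries as deposited, nor after the floxed bounds were multiplied by the 1.81 of the median locus.

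The deposited bounds also give the depth behind the members with 1 transcript. If a bound lies at FPKM plus or minus 2 times FPKM over the square root of the fragments, all 13 values above 0 of these 7 members come out as whole fragment numbers within 0.02. Over all single-transcript loci this held for 76.3% in deficient cells and 77.4% in floxed cells. On that reading Ccl7 rested on 2708 fragments in deficient cells and 772 in floxed cells, and Ccl2 on 682 and 477. Ccl5 rested on 13 and 48 fragments, and Cxcl10 on 4 and 52. The 3 genes under 1 FPKM rested on at most 14 fragments per library. These numbers cover counting error only, not the spread between cultures.

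Cxcl1 and Cxcl5, the neutrophil-attracting CXC pair of chromosome 5, gave a call for Cxcl1 only. Cxcl1 (91320216 to 91322141, mm9) was at 50.5 FPKM in the deficient library and 13.1 FPKM in the floxed library, a relative log2 fold of 1.01 (2.02-fold) and 1.87 as deposited. It had a pair of transcripts. The annotated form of 4 exons was at 40.1 FPKM (34.9 to 45.3) in the deficient library and 12.4 FPKM (9.63 to 15.2) in the floxed library, a relative log2 fold of 0.76. A form of 3 exons that keeps an intron of 718 nt was at 10.4 FPKM (8.43 to 12.4) in the deficient library and 0.66 FPKM (0.14 to 1.19) in the floxed library. That form held 20.6% of the gene in deficient cells and 5.08% in floxed cells. The call for Cxcl1 therefore rests in part on the transcript with the retained intron, and the annotated transcript alone was within 2-fold.

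Cxcl5 (91188325 to 91190651) was at 4.22 FPKM in the deficient library and 3.50 FPKM in the floxed library, a relative log2 fold of -0.65 and 0.21 as deposited. Its annotated transcript had overlapping bounds, 2.82 to 5.09 FPKM in the deficient library and 1.63 to 3.58 FPKM in the floxed library. A form that skips an exon of 136 nt was at 0.26 FPKM (0 to 0.66) in the deficient library and 0.90 FPKM (0.19 to 1.61) in the floxed library. No difference in Cxcl5 was resolved at this depth.

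Cxcl10 and Ccl5, which interferon and viral sensing are known to induce, were the lower members. Cxcl10 (chromosome 5, minus strand, 92775665 to 92777915, mm9) was at 0.48 FPKM (0 to 0.95) in the deficient library and 6.40 FPKM (4.62 to 8.17) in the floxed library. Its relative log2 fold was -3.18, and -2.32 as deposited. By level it ranked 10375 of 10650 kept loci in deficient cells and 3673 in floxed cells. Ccl5 (chromosome 11, minus strand, 83339281 to 83344020) was at 4.26 FPKM (1.90 to 6.63) in the deficient library and 16.1 FPKM (11.5 to 20.8) in the floxed library, a relative log2 fold of -2.56 and -1.70 as deposited. For both genes the bounds of the libraries did not overlap, as deposited or scaled to the median locus. Both were lower under either scaling.

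Promoters of 5 members could be matched in RefSeq (GRCm38.p6, 250 bases before to 50 after the start). They were searched on both strands for a core of the NF-kB site, GGG and CC separated by any 5 bases, and for a core of the interferon response element, 2 copies of GAAA separated by any 2 bases. The promoters of Cxcl10, Cxcl1 and Cxcl12 are shown since these genes gave the lowest and the highest folds, with matches in capitals. Overlapping matches run together.
Cxcl10, chr5:92348840-92349139, minus strand: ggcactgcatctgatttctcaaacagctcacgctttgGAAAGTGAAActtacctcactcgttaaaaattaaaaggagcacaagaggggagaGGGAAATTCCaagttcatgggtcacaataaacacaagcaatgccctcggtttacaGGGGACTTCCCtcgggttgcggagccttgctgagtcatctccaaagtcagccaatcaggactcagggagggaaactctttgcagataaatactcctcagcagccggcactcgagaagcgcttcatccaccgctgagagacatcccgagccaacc
Cxcl1, chr5:90890995-90891294, plus strand: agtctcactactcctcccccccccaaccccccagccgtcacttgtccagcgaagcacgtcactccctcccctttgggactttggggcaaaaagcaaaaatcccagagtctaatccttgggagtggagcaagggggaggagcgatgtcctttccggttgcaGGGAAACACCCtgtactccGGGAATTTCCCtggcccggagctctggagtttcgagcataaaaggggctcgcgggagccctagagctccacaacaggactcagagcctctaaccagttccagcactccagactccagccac
Cxcl12, chr6:117168285-117168584, plus strand: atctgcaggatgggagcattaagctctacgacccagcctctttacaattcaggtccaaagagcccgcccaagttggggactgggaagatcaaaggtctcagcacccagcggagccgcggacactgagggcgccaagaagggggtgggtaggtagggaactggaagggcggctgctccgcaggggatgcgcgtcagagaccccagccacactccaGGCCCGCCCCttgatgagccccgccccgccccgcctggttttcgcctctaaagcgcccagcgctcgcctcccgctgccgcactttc
The interferon core was found in Cxcl10, at -213 from the start, and in Cxcl14, against 3.44% of all 32851 promoters of the same length. The NF-kB core was found in Cxcl10, Cxcl1 and Cxcl12 of the 5, against 50.8% of all promoters, so a match is common. A match is a description of the letters, and no binding was measured.

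The remaining members were barely detected. Cxcl14, an epithelial and stromal chemokine, was at 0.40 FPKM (0.073 to 0.72) in the deficient library and 0.20 FPKM (0 to 0.44) in the floxed library. Cx3cl1, or fractalkine, was at 0.51 FPKM (0.24 to 0.78) in the deficient library and 0.30 FPKM (0.088 to 0.51) in the floxed library. Both pairs of bounds overlapped. Cxcl16 was listed at 0 in the deficient library and at 0.39 FPKM (0.12 to 0.67) in the floxed library, and a listed 0 can be a failed estimate, so no fold is given.

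Highly expressed members sat beside genes listed at or near 0, although Ccl2 and Ccl7, both highly expressed, are neighbours. On chromosome 11, Ccl11, Ccl12 and Ccl1, which lie within the same cluster as Ccl2 and Ccl7, were listed at 0 in both libraries, and Ccl8 was listed at 0 in the deficient library and at 0.36 FPKM in the floxed library. Ccl5 lies 1346 kb beyond that cluster. Its neighbour Ccl9, a myeloid CC chemokine gene, was at 3.11 FPKM in the deficient library and 6.20 FPKM in the floxed library, a relative log2 fold of -1.67 and -0.81 as deposited. Ccl6, next to Ccl9, was at 1.04 FPKM in the deficient library and was listed at 0 in the floxed library. On chromosome 5, Cxcl2 lies 10.8 kb from Cxcl1 and encodes a related neutrophil chemokine, and it was at 0.36 FPKM in the deficient library and listed at 0 in the floxed library. Pf4 and Cxcl3, between Cxcl5 and Cxcl1, were listed at 0 in both libraries. The other interferon-induced genes beside Cxcl10 were low: Cxcl9 was listed at 0 in the deficient library and at 0.45 FPKM in the floxed library, and Cxcl11 was listed at 0 in both.

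**Figure D4:**
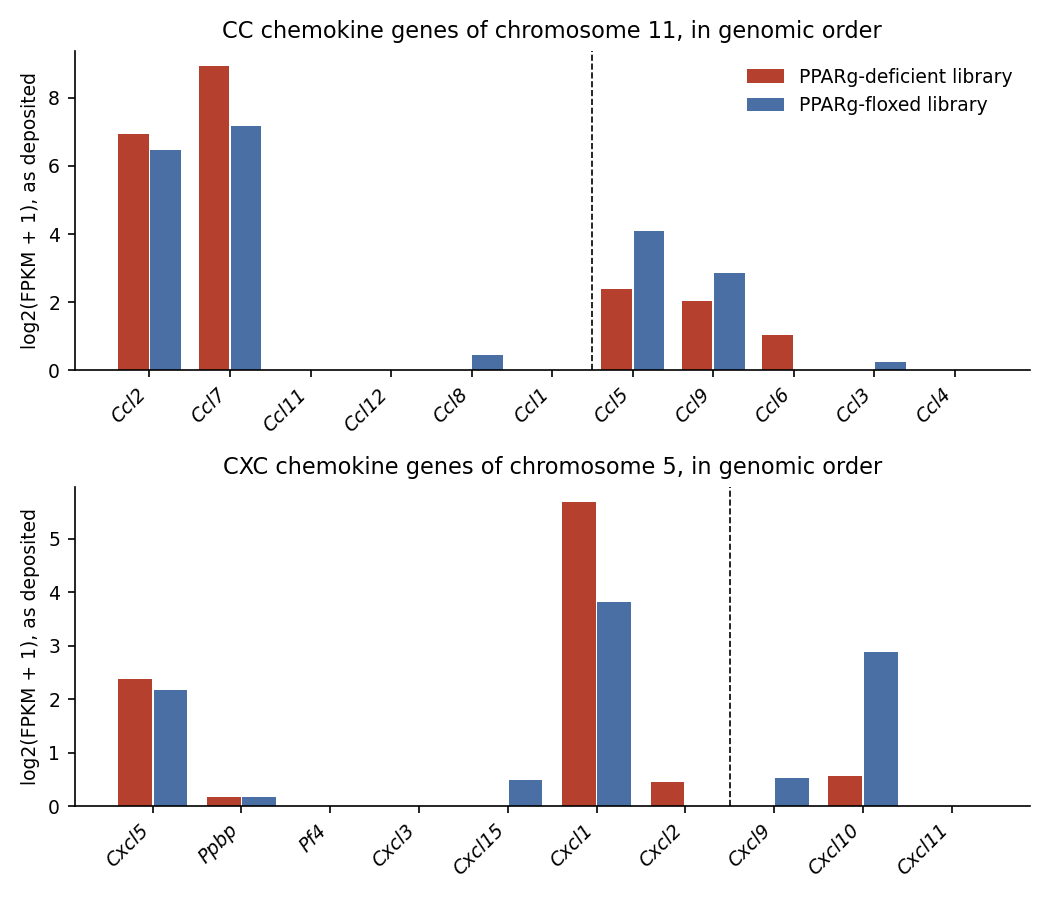
Levels of chemokine genes of chromosome 11 (top) and chromosome 5 (bottom) in genomic order, as log2 of deposited FPKM plus 1, in the PPARg-deficient library (left bar, red) and the PPARg-floxed library (right bar, blue). The dashed lines mark gaps of 1346 kb (top) and 1415 kb (bottom), and Ccl2, Ccl7 and Cxcl1 stand out above neighbours that are at or near 0.

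Across the wider family, 27 of 28 other chemokine genes could be matched and 14 of them were listed at 0 in both libraries. Only Ccl6, Ccl9, Ccl17, Ccl25 and Ccl27a reached 1 FPKM, and they summed with the rest to 11.9 FPKM in the deficient library and 17.0 FPKM in the floxed library, far under the 10 members. Of these 5, none was called higher and 3 were called lower, and as deposited 1 was higher and 1 lower. Over all kept loci 10.3% were higher and 11.6% lower, and as deposited 42.0% and 4.57%. Ccl6 reached 1 FPKM in the deficient library alone and Ccl17 in the floxed library alone, so their folds were partly fixed by the filter. Ccl17, a T cell chemokine gene, was listed at 0 in the deficient library, which can be a failed estimate, and at 1.77 FPKM in the floxed library. Ccl25 was at 2.98 FPKM in the deficient library and 3.53 FPKM in the floxed library. Ccl27a was at 3.96 and 4.01 FPKM in the deficient and floxed libraries, and it has near-identical copies among which reads could be split, so its value is uncertain.

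Most chemokine receptor genes that could be matched were at or near 0 in both libraries. Of 18 signalling receptor genes 14 were matched, but not Cxcr3, Cxcr6, Cx3cr1 or Xcr1, so the receptors for CXCL10, CXCL16 and CX3CL1 have no value here. Of the 14, 9 were listed at 0 in both libraries, among them Cxcr4, the CXCL12 receptor, and Ccr2, the CCL2 and CCL7 receptor. Cxcr2, which CXCL1 and CXCL5 bind, was at 0.029 FPKM in the deficient library and 0.11 FPKM in the floxed library. Cxcr5, the receptor for CXCL13, was the only one to reach 1 FPKM, at 2.34 FPKM in the deficient library and 2.15 FPKM in the floxed library (relative log2 fold -0.77), while its ligand gene Cxcl13 was listed at 0 in both. Among scavenging receptors Ackr4, which clears CCL19, CCL21 and CCL25, was at 0.056 FPKM (0 to 0.17) in the deficient library and 3.30 FPKM (2.42 to 4.18) in the floxed library, a relative log2 fold of -2.88. It passed the filter through the floxed library alone, so this difference was partly fixed by the filter. Ackr3, the scavenger of CXCL12, was among the receptor genes that could not be matched.

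Genes that shape chemokine activity were described from lists chosen with earlier results of these data known. Of 7 kept proteases and syndecans, 3 were lower and none was higher, with a median relative log2 fold of -0.14, but as deposited 3 were higher and 1 lower. Over all kept loci 10.3% were higher and 11.6% lower, and as deposited 42.0% and 4.57%, so the count of higher genes as deposited was near the background. Mmp2, a gelatinase that cleaves CXCL12 and CCL7, was at 1.85 FPKM in the deficient library and 9.97 FPKM in the floxed library (-2.80). The heparan sulfate carriers Sdc2 (511 and 776 FPKM, -1.46) and Sdc4 (71.0 and 88.1 FPKM, -1.17) were the other lower genes in the deficient library against the floxed library. The sheddases Adam10 (6.79 and 3.75 FPKM, -0.14) and Adam17 (11.3 and 3.75 FPKM, 0.52) lay within 2-fold relative to the median locus. As deposited, Adam17 was past 2-fold (1.38) and Adam10 was not (0.71).

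Other niche genes of CXCL12-producing stromal cells went both ways. Of 16 listed, 15 were matched. Among those not kept was Lepr, at 0.067 FPKM in the deficient library and 0.24 FPKM in the floxed library. Of 11 kept, 3 were higher and 2 lower, with a median relative log2 fold of 0.38, and as deposited 7 were higher and none lower, beside the 10.3% and 11.6% of all kept loci (42.0% and 4.57% as deposited). Of the 11, 2 reached 1 FPKM in the deficient library alone, so the count of higher genes and the median were partly fixed by the filter. Among the 9 at 1 FPKM in both libraries, 2 were higher and 2 lower. Bmp4, a bone morphogenetic protein gene, was at 46.9 FPKM in the deficient library and 9.32 FPKM in the floxed library (1.36). Kitl, the stem cell factor gene, was at 12.6 FPKM in the deficient library and 22.6 FPKM in the floxed library (-1.65), and Angpt1, an angiopoietin gene, was at 11.3 FPKM in the deficient library and 17.8 FPKM in the floxed library (-1.48). Thus Cxcl12 and Kitl, both products that stromal cells supply to blood stem cells, lay on opposite sides of the median locus.

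NF-kB, a transcription factor family, is known to control Ccl2 and Cxcl1, and its list of pathway and target genes had 2 of 12 kept members higher and none lower, with a median relative log2 fold of 0.14, and as deposited 6 were higher and none lower. Over all kept loci 10.3% were higher and 11.6% lower, and as deposited 42.0% and 4.57%, so the counts of higher genes were near the background. Of the 12, 5 reached 1 FPKM in the deficient library alone, Nfkbia among them, so the count of higher genes and the median were partly fixed by the filter. Among the 7 at 1 FPKM in both libraries, 1 was higher and none lower. Sod2, a mitochondrial superoxide dismutase gene, was at 28.6 FPKM in the deficient library and 2.04 FPKM in the floxed library (2.43). Nfkbia, the inhibitor that NF-kB induces, was at 5.28 FPKM in the deficient library and 0.48 FPKM in the floxed library (1.23). Vcam1, an adhesion molecule gene, was at 60.2 and 59.9 FPKM in the deficient and floxed libraries (-0.85). Tnf and Il1b were listed at 0 in both libraries.

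Interferon genes had 13 of 16 kept members lower and none higher, with a median relative log2 fold of -3.04. As deposited 12 were lower and 1 higher. Over all kept loci 11.6% were lower and 10.3% higher, and as deposited 4.57% and 42.0%. Of the 16, 6 passed the filter through the floxed library alone, Usp18 and Isg15 among them, so their lower calls and the list's median were partly fixed by it. Some of the 6 were listed at 0 in the deficient library, which can be a failed estimate. Usp18, which removes ISG15 from proteins, was at 0.68 FPKM in the deficient library and 401 FPKM in the floxed library (-8.76). Isg15 itself (0.19 and 122 FPKM, -7.54) and Ifit1, an antiviral RNA-binding gene (2.35 and 329 FPKM, -7.48), were likewise lower in the deficient library against the floxed library. Cxcl10 and Ccl5 lay on the same side of the median locus as this list, but whether they moved for a shared reason was not tested. Irf1, an interferon-induced transcription factor named after its value was seen, was at 8.73 FPKM in the deficient library and 8.29 FPKM in the floxed library (-0.79).

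**Figure D5:**
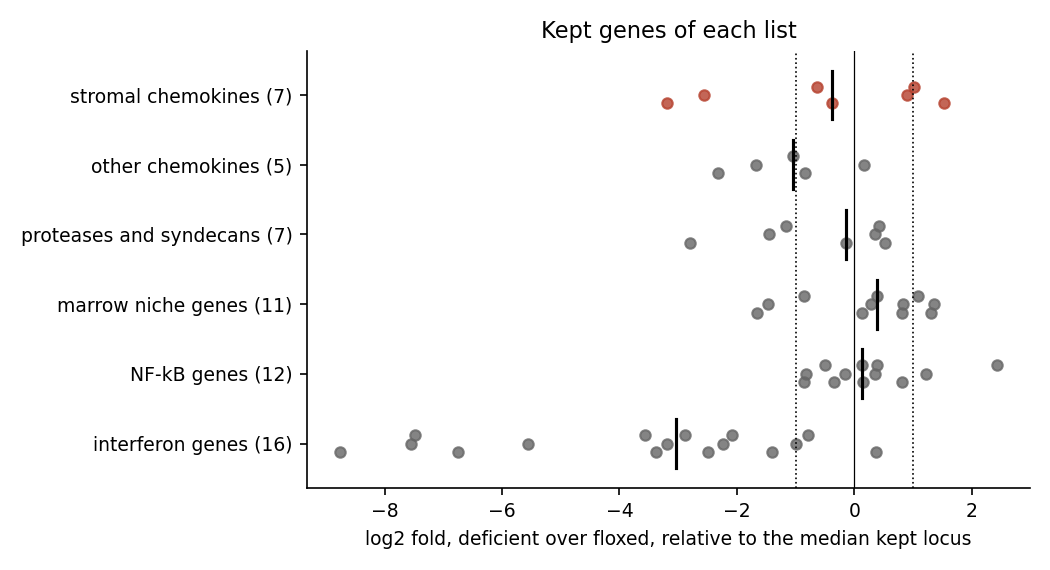
Relative log2 folds, deficient over floxed, of the kept genes of each list (points, with the number of genes beside the name), the list median (black bar), the median kept locus (solid line) and the 2-fold limits (dotted). The stromal chemokines spread from -3.18 to 1.52 around a median of -0.39, and interferon genes have a median of -3.04.

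Most markers of other cell types that make chemokines were low, but Lyz2 and Cd14 were not low in the deficient library. Of 13 macrophage genes, 7 were listed at 0 in both libraries, among them Ptprc, Adgre1, Itgam and Fcgr1. The list summed to 34.5 FPKM in the deficient library and 6.36 FPKM in the floxed library, nearly all of it from Lyz2 (19.5 and 0.26 FPKM), Cd14 (12.5 and 4.52 FPKM) and Cd68 (2.10 and 1.56 FPKM). As deposited, these values, like those of Cxcl12, Cxcl1 and Ccl7, were higher in the deficient library, where 42.0% of all kept loci were called higher. Relative to the median locus Cd14 (0.43) and Cd68 (-0.58) lay within 2-fold, on opposite sides, and Lyz2 was given no fold. The part of the macrophage genes in the chemokine results was not tested. Endothelial genes summed to 0.28 FPKM in the deficient library and 0.034 FPKM in the floxed library. Lymphoid genes summed to 0.44 and 0.53 FPKM, and granulocyte and platelet genes to 0.22 and 0 FPKM, in the deficient and floxed libraries. In such bulk samples fewer cells that express a gene and less RNA per cell cannot be told apart.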

How the data were processed

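The authors deposited, for each of 2 libraries, FPKM per transcript with lower and upper bounds and coverage inside a text field, as Cufflinks writes it. The tools were TopHat2 2.0.5, Cufflinks 2.0.2 and Cuffdiff 2.0.2 and the build was mm9, per the submitters' processing notes, which state neither role nor order. Annotation, filters and strand handling are not stated.

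The files hold no symbols. Of 25707 loci, 18989 were named by matching ordered intron and internal exon lengths to GENCODE M21 on the same chromosome and strand: 17681 by a whole chain, 350 by a run of 3 lengths and 958 by a single intron with a terminal exon. Of 37034 chains tried on a wrong chromosome, 0 matched. No coordinate was converted. Lyz2 was read from its own transcript in a locus shared with Lyz1. FPKM was summed per gene, with a pseudocount of 1. The steps were tested on simulated data. The fragment numbers read from the bounds were worked out after the data were seen.

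Members and lists were chosen with earlier results of these data known. Genes named are the members, other chemokines and receptors reaching 1 FPKM, up to 3 genes per context list (those over a floor of 5 FPKM whose folds were largest in size), the 3 highest markers per list, and defining markers listed at 0. Adam10, Adam17, Lepr, Tnf, Il1b, Cxcr2, Cxcr4, Ccr2, Cxcl13, Irf1 and low genes flanking a member were added with their values in view. Markers of lists that stayed under 1 FPKM are given as sums. Protein sequences were not used here, although the design named them. Python 3.11.15, numpy 2.4.6, pandas 2.3.3 and matplotlib 3.10.9 were used.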

Additional observations from a re-analysis of the deposited data

How the results depend on the processing

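With 1 library per genotype, nothing here measures the spread between cultures, and no replicate could be left out. No paired analysis was possible because each group has 1 library. The log2 fold of Cxcl12 stayed past 2-fold in 9 alternatives (1.25 to 2.38). So did those of Ccl5 (-3.04 to -1.63) and Cxcl10 (-4.63 to -1.49). These ranges and those below mix folds relative to the median locus with folds not centred on it. The latter are those as deposited, with TPM and with upper-quartile scaling. Ccl7 passed the limit in 4 of 9 (0.63 to 1.76) and Cxcl1 missed it in 4 of 9 (0.80 to 1.87). Ccl2 (-0.67 to 0.47) and Cxcl5 (-0.88 to 0.21) stayed within 2-fold, with a sign that depends on the scaling. The count of higher members, 2, became 1 with a pseudocount of 0.1 FPKM, a filter of 5 FPKM, upper-quartile scaling or the most abundant transcript, and 0 at 4-fold, and became 3 as deposited, with TPM, without a filter, with a pseudocount of 5 FPKM or at 1.5-fold. The count of lower members was 2 or 3 throughout. Higher and lower kept loci, 1093 and 1240, became 4478 and 487 as deposited, 4537 and 578 with TPM, 4166 and 519 without a filter, 724 and 859 with a filter of 5 FPKM, 1695 and 1710 with a pseudocount of 0.1, 905 and 423 with a pseudocount of 5, 2331 and 2172 at 1.5-fold, and 159 and 413 at 4-fold. TPM left the median locus at 0.86 and upper-quartile scaling at 0.07. The median locus also depended on the filter and the pseudocount. Cxcl12, at 2.38 as deposited, was at 1.52 relative to it in the main setting. It was at 2.32 without a filter and 1.30 with a filter of 5 FPKM. Of 120 counts for the context lists, 41 moved by over 1.5 times. Lower interferon genes numbered 10 to 15. Causes were not tested.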

Other observations

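Cxcl12 lies 1.68 Mb from Pparg on chromosome 6 (mm9). Of the 12 kept loci between them, 1 was called higher and 3 lower in the deficient library against the floxed library. Over all kept loci 10.3% were higher and 11.6% lower. The median relative log2 fold of the 12 was -0.61, with a range of -2.57 to 1.48. The interval was chosen after the values were seen.

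Ccl25, whose log2 fold was -0.19 as deposited and -1.05 relative to the median locus, was assigned to different transcripts in the libraries. The form of 8 exons was at 2.60 FPKM in the deficient library, and its upper bound in the floxed library was 0.21 FPKM. An annotated form of 6 exons had an upper bound of 0.24 FPKM in the deficient library and was at 2.73 FPKM in the floxed library. This gene was looked at by transcript after its values were seen, and how far the estimate can separate such similar forms was not tested.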
